A study of Mus musculus with 12 samples.

Results

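Genes for 8 secreted products of the extracellular space were followed in mouse fetal liver alveolar-like macrophages (FLAMs), cultured cells grown from fetal liver that serve as a model of the macrophages of the lung air sacs. The genes were chosen by name, as rows of the deposited count table with the symbols Fn1, Vcan, Tgfbi, Thbs1, Spp1, Sparc, F7 and Edn1. All 8 were found among its 40847 rows. Every group was grown in medium with recombinant mouse GM-CSF (30 ng/ml). In the labels, TGFβ cells had recombinant human TGFβ1 at 20 ng/ml in the medium, and Pam3 cells received the TLR2 ligand Pam3CSK4 at 25 ng/ml for 18 h, which gives 4 groups (untreated, TGFβ, Pam3 and Pam3+TGFβ) of 3 libraries. The labels give neither the time in TGFβ nor whether replicates came from separate animals or cultures, so p-values measure the spread between these libraries, which may be technical. No strain or genotype is named in them.

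The extracellular matrix is the protein and sugar network around cells. Fibronectin (Fn1), versican (Vcan) and TGFβ-induced protein (Tgfbi) are part of it or bind its fibres, while matricellular proteins such as thrombospondin-1 (Thbs1), osteopontin (Spp1) and osteonectin (Sparc) are secreted into it and act on cells through receptors such as integrins, CD36, CD44 and CD47. Coagulation factor VII (F7) starts the extrinsic clotting pathway with tissue factor, and endothelin-1 (Edn1) is a peptide that constricts vessels. TGFβ is known to induce matrix genes in fibroblasts, and macrophages of the lung are held in their tissue state by TGFβ and GM-CSF.

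Libraries held 34036650 to 44374115 counts. Levels are given in CPM, the usual depth-adjusted count rate, on TMM-scaled library sizes, and a gene was called at an adjusted p under 0.05 over the 14749 genes tested (quasi-likelihood test of edgeR, Benjamini-Hochberg adjustment). The macrophage genes Lyz2, Csf1r and Cd68 were abundant in every group, at no less than 549 CPM in mean. Of 8 macrophage markers, Itgam fell with TGFβ from 1088 to 38.8 CPM (101 CPM with both treatments) and Adgre1 from 303 to 145 CPM. Lyz2, Csf1r, Cd68 and Ptprc were also called lower with TGFβ alone. Fcgr1 went the other way, from 81.1 to 91.3 CPM (adjusted p 0.0175), and from 88.1 to 171 CPM among cells given Pam3. Mertk stood at 223 and 222 CPM, and at 193 and 228 CPM among cells given Pam3. TGFβ raised its targets Smad7 from 2.42 to 12.1 CPM and Skil from 86.4 to 239 CPM, and Pam3 raised the NF-kB target Nfkbia from 118 to 183 CPM (group means). Siglecf, a marker of alveolar macrophages, rose from 32.1 to 300.4 CPM with TGFβ, while Fabp4, another such marker, fell from 31.1 to 0.132 CPM. Tnfaip3, another NF-kB target, stood at 43.5 CPM untreated, 69.6 CPM with Pam3, 15.9 CPM with TGFβ and 120.3 CPM with both. Over 8 alveolar macrophage markers the summed level was 6393 to 7180 CPM untreated and 7803 to 8332 CPM with TGFβ, and over the 8 macrophage markers, mostly Lyz2, it was 32436 to 36613 CPM and 17080 to 18036 CPM. The alveolar markers moved apart, with Marco falling from 2147 to 123 CPM and Itgax from 335 to 168 CPM, and Chil3 rising from 2954 to 5038 CPM and Ear2 from 654 to 1494 CPM. Pparg also rose, from 117 to 225 CPM, and Car4 from 448 to 774 CPM. The marker genes named here other than Siglecf were picked after their values were seen. Of the 8 genes, 7 passed the filter on low counts. Sparc did not.

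Across the 8 genes, TGFβ went with a different makeup of secreted transcripts. Spp1 and Tgfbi were higher with TGFβ, and Fn1, Vcan, Thbs1, F7 and Edn1 were lower. All 7 tested genes were called with TGFβ alone, 2 higher and 5 lower, where 22.9% of all tested genes were higher and 28.1% lower by the same rule. In the presence of Pam3, the same 2 genes were called higher and the same 5 lower, where the shares over all tested genes were 21.5% and 23.8%. The groups with and without TGFβ did not overlap for any of the 7, with or without Pam3. How many of all tested genes also lack overlap was not counted, so this only describes these genes. Thbs1 and Edn1 passed the filter through the libraries without TGFβ alone, so a difference was bound to appear in them. Their lower calls in each comparison therefore support nothing about the set. Pam3 had smaller effects on most of these genes. In bulk RNA, fewer cells expressing a gene and less RNA per cell cannot be told apart.

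**Figure D1:**
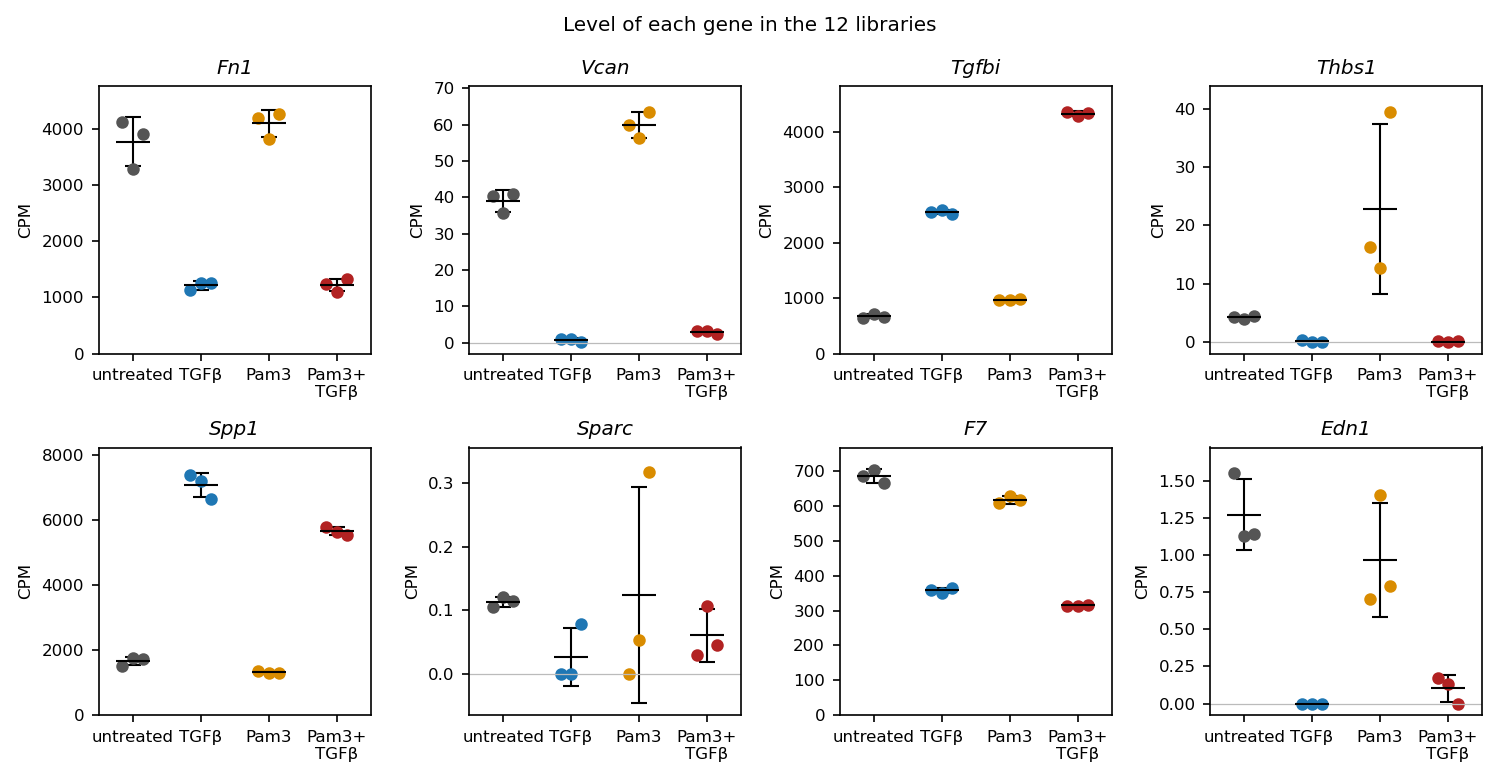
Level of each of the 8 genes (y axis, CPM, a linear scale that differs between panels) in the 4 groups of 3 libraries (x axis). Points are libraries, long bars are means and error bars are SD. Spp1 and Tgfbi are high with TGFβ, Fn1, Vcan, Thbs1, F7 and Edn1 are low with it, and Sparc reaches at most 0.318 CPM in any library.

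Promoter sequences are shown for genes that moved in opposite directions with TGFβ, so that the rise of Tgfbi and Spp1 and the fall of F7 and Edn1 can be read against the DNA at their start sites. They come from RefSeq on build GRCm38.p6, which held 6 of the 8 genes (Fn1 and Thbs1 are missing), and run from 250 bases before to 50 after the start, written 5′ to 3′ on the plus strand, which is the strand of these 4 genes. Capitals mark the SMAD box CAGAC or its reverse complement GTCTG, and in Spp1 also the PU.1 core GAGGAAG (both strands searched, no overlap between the motifs here). The positions are chr13:56609336-56609635 for Tgfbi, chr5:104434861-104435160 for Spp1 (the first of 2 listed starts), chr8:13025784-13026083 for F7 and chr13:42301226-42301525 for Edn1.
Tgfbi: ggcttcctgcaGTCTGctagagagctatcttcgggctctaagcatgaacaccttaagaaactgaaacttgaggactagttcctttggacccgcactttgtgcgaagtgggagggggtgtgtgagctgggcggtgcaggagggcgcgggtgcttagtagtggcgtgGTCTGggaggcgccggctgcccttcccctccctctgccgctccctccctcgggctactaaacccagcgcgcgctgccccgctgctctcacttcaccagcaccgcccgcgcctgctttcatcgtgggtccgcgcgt
Spp1: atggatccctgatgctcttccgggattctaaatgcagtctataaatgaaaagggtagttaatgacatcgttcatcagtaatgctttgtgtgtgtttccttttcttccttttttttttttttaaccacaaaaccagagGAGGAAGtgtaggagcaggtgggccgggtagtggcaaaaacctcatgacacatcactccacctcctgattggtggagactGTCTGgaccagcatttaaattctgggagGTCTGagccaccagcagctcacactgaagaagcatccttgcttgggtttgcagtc
F7: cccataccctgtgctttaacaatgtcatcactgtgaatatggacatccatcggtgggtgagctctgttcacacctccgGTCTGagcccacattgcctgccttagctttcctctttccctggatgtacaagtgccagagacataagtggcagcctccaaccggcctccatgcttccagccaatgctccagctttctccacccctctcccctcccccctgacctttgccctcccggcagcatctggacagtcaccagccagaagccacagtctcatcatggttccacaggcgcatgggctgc
Edn1: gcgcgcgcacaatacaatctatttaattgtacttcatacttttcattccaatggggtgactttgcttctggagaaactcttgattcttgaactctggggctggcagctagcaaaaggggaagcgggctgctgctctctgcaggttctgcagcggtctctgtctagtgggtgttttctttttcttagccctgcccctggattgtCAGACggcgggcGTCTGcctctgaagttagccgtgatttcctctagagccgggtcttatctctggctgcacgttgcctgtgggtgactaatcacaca

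The SMAD box occurred in 49.6% of 32851 promoters of this length, the PU.1 core in 13.6% and the AP-1 site TGANTCA in 7.81%. Tgfbi, Spp1 and Edn1 each held 2 SMAD boxes and F7 held 1, so a SMAD box was present in genes that rose and in genes that fell. None of these 4 windows held the AP-1 letters. The Vcan window held none of the 3 motifs. The other listed Spp1 start had 1 SMAD box and no PU.1 core, and the Sparc window had 2 SMAD boxes. A match is a description of the letters and not of binding.

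Among the matrix proteins, fibronectin had the highest CPM of the 8 genes in cells without TGFβ. Fn1 (ENSMUSG00000026193, chromosome 1, 71624673 to 71692419 of GRCm39, minus strand, 46 exons in the canonical transcript) stood at 4138, 3296 and 3918 CPM in the untreated libraries, at 1131, 1253 and 1265 CPM with TGFβ, at 4204, 3837 and 4279 CPM with Pam3 and at 1232, 1103 and 1330 CPM with both. Every library with TGFβ was below every library without it, and Pam3 groups overlapped those without Pam3. The TGFβ effect was -1.64 on the log2 scale without Pam3 (SE 0.0810, adjusted p 3.63e-13), which is 3.11-fold lower, and -1.75 with Pam3 (SE 0.0812, adjusted p 1.60e-13). Pam3 changed Fn1 by 0.12 without TGFβ (95% interval -0.04 to 0.27, adjusted p 0.356) and by 0.01 with TGFβ (-0.15 to 0.16, adjusted p 0.96). The 4 levels therefore formed a lower pair with TGFβ and a higher pair without it, with no called step inside either pair. Apol7d, an antisense gene that shares 429 exonic bases with Fn1, had at most 9 counts in any library.

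Versican, a large chondroitin sulfate proteoglycan that binds hyaluronan, fell to a few CPM or less with TGFβ. Vcan (ENSMUSG00000021614, chromosome 13, 89803431 to 89890814, minus strand of GRCm39) stood at 40.3, 35.6 and 41.0 CPM in untreated cells, 1.19, 1.16 and 0.236 CPM with TGFβ, 60.0, 56.3 and 63.4 CPM with Pam3, and 3.14, 3.16 and 2.37 CPM with both. No 2 groups overlapped. It was 45.0-fold lower with TGFβ (log2 fold change -5.49, SE 0.279, adjusted p 2.83e-08) and, among cells given Pam3, TGFβ made it 20.8-fold lower (-4.38, SE 0.236, adjusted p 5.67e-08). The lowest value, from TGFβ replicate 3, rests on 9 counts, against 43 and 47 in the other TGFβ libraries.

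Pam3 gave a log2 fold change for Vcan of 0.62 without TGFβ (SE 0.188, adjusted p 0.0461) and 1.73 with TGFβ (SE 0.342, adjusted p 0.00221). The former is at the threshold. It was not called with a replicate block (adjusted p 0.0726), with DESeq2 (0.236), with limma-trend on the deposited normalized values (0.498), or without any 1 of the untreated, Pam3 or Pam3+TGFβ libraries (log2 fold changes of 0.56 to 0.66, adjusted p 0.0593 to 0.131). A fit of the 6 libraries compared did call it (0.62, adjusted p 5.07e-06). The difference between the Pam3 responses was 1.11 (adjusted p 0.0948), and 0.64 (adjusted p 0.022) without TGFβ replicate 3.

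TGFβ-induced protein, a secreted matrix protein that binds collagen and integrins and takes its name from its induction by TGFβ, rose with both stimuli. Tgfbi (ENSMUSG00000035493, chromosome 13, 56757336 to 56787375, plus strand of GRCm39) stood at 645, 717 and 663 CPM in untreated cells, 2547, 2590 and 2512 CPM with TGFβ, 965, 965 and 981 CPM with Pam3, and 4355, 4283 and 4347 CPM with both. The groups followed the order untreated, Pam3, TGFβ and Pam3+TGFβ, with no overlap and a called difference at each step (adjusted p 3.31e-08, 1.82e-17 and 5.31e-12). TGFβ raised it 3.78-fold alone (log2 fold change 1.92, SE 0.0535, adjusted p 4.54e-20) and 4.46-fold with Pam3 (2.16, SE 0.0539, adjusted p 6.93e-21). Pam3 raised it by 0.52 without TGFβ (SE 0.0519) and by 0.76 with TGFβ (SE 0.0520, adjusted p 5.31e-12), and Pam3+TGFβ cells had 6.41-fold the untreated level. In the comparison of Pam3+TGFβ with untreated cells, 25% of all tested genes were called higher and 27.2% lower, and in that of Pam3 with TGFβ, 29.6% and 24.5%.

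Thrombospondin-1, a matricellular protein known to activate latent TGFβ and to bind CD36 and CD47, varied widely between libraries after Pam3. Thbs1 (ENSMUSG00000040152, chromosome 2, 117941974 to 117957616, plus strand of GRCm39) had 162, 165 and 154 counts in the untreated libraries, 9, 0 and 2 with TGFβ, 624, 480 and 1242 with Pam3, and 3, 0 and 3 with both. In CPM the untreated libraries stood at 4.26, 3.97 and 4.39 and the Pam3 libraries at 16.2, 12.7 and 39.5. Every library without TGFβ exceeded every library with it, and Pam3 replicate 3 was far above the other Pam3 libraries. Its level with TGFβ was so low that the fold is best read from the counts. These gave a ratio of untreated to TGFβ of 43.8 (95% exact counting interval 24.3 to 88.3) and a ratio of Pam3 to Pam3+TGFβ of 422 (193 to 1150), where the intervals cover counting error only. The fitted TGFβ effect was -5.40 alone (SE 0.892, adjusted p 0.00084), or -7.17 without TGFβ replicate 1 and -4.77 without TGFβ replicate 2. It was -8.69 with Pam3 (SE 0.837, adjusted p 2.62e-05), or -8.03 without Pam3 replicate 3. Thbs1 passed the filter only through libraries without TGFβ, so lower calls were bound to appear and these adjusted p values are no support. The antisense gene Gm13986, which shares 511 exonic bases with Thbs1, had 0 counts in all 12 libraries.

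Pam3 raised Thbs1 5.40-fold in cells without TGFβ (log2 fold change 2.43, SE 0.453, adjusted p 0.00586). Leaving out Pam3 replicate 3 gave 1.78, still called. The call was lost with limma-trend on the deposited normalized values (adjusted p 0.0514) and in a fit of the 6 libraries compared (adjusted p 0.0656). With TGFβ, the Pam3 response was -0.85 (95% interval -5.09 to 3.38, adjusted p 0.804), from 11 counts over the TGFβ libraries and 6 over the Pam3+TGFβ libraries, so a response was not detectable at this depth. The difference between these responses, -3.28 (SE 2.30, adjusted p 0.437), was not called, and ranged from -1.52 without TGFβ replicate 1 to -3.91 without TGFβ replicate 2.

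Osteopontin, a secreted phosphoprotein and cytokine that binds integrins and CD44, was among the most abundant transcripts of these cells. Spp1 (ENSMUSG00000029304, chromosome 5, 104582165 to 104589235, plus strand of GRCm39) stood at 1515, 1750 and 1730 CPM in untreated cells, 7376, 7194 and 6651 CPM with TGFβ, 1369, 1297 and 1282 CPM with Pam3, and 5795, 5627 and 5542 CPM with both. No groups overlapped, and the order was Pam3, untreated, Pam3+TGFβ and TGFβ. TGFβ raised it 4.25-fold alone (log2 fold change 2.09, SE 0.0612, adjusted p 1.26e-19) and 4.30-fold with Pam3 (2.10, SE 0.0613, adjusted p 1.45e-19). Pam3 lowered it in both conditions. The log2 fold change was -0.34 without TGFβ (SE 0.0589, adjusted p 0.000124) and -0.32 with TGFβ (SE 0.0589, adjusted p 7.79e-05). The difference between these responses was 0.02 (95% interval -0.15 to 0.18, adjusted p 0.939).

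Sparc, the gene for osteonectin, a collagen-binding matricellular protein, was close to the detection limit. Sparc (ENSMUSG00000018593, chromosome 11, 55285317 to 55314067, minus strand of GRCm39) had 4, 5 and 4 counts in the untreated libraries, 0, 0 and 3 with TGFβ, 0, 2 and 10 with Pam3, and 1, 4 and 2 with both. Its highest value, 0.318 CPM, was again in Pam3 replicate 3. It did not pass the filter and has no value in the main test. Without a filter, edgeR gave adjusted p values of 0.357 for TGFβ alone and 0.69 for TGFβ with Pam3, so no difference was detectable at this depth.

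The remaining genes encode a clotting enzyme and a peptide hormone. Factor VII is a plasma protease precursor that is best known as a product of hepatocytes. F7 (ENSMUSG00000031443, chromosome 8, 13076002 to 13085809, plus strand of GRCm39) stood at 687, 705 and 666 CPM in untreated cells, 360, 351 and 365 CPM with TGFβ, 608, 630 and 617 CPM with Pam3, and 315, 314 and 316 CPM with both. The 4 groups did not overlap, and Pam3+TGFβ was the lowest. TGFβ lowered F7 1.91-fold alone (log2 fold change -0.93, SE 0.0453, adjusted p 3.67e-15) and 1.96-fold with Pam3 (-0.97, SE 0.0454, adjusted p 2.18e-15). Pam3 lowered it by less, with -0.15 without TGFβ (SE 0.0449, adjusted p 0.02) and -0.19 with it (SE 0.0450, adjusted p 0.00157). The former call was lost without Pam3 replicate 1 (-0.14, adjusted p 0.0852), without Pam3 replicate 3 (-0.15, adjusted p 0.0547) and in a fit of the 6 libraries compared (-0.14, adjusted p 0.0678). The difference between these responses was -0.04 (95% interval -0.16 to 0.09, adjusted p 0.773).

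Endothelin-1, which is made mainly by endothelial cells and also by macrophages, was low in cells without TGFβ and at or near 0 with it. Edn1 (ENSMUSG00000021367, chromosome 13, 42446301 to 42461466, plus strand of GRCm39) had 59, 47 and 40 counts in the untreated libraries, 0, 0 and 0 with TGFβ, 27, 53 and 25 with Pam3, and 6, 5 and 0 with both. Its fall with TGFβ alone (adjusted p 8.99e-07) was at least 16.2-fold, taking 3 counts per library as the floor for a library at 0. With Pam3 present, the ratio of Pam3 to Pam3+TGFβ was 10.3 (95% exact counting interval 5.52 to 21.2), and the fit gave -3.26 (SE 0.688, adjusted p 0.000399). Leaving out Pam3+TGFβ replicate 1 gave -3.88, and leaving out replicate 3 of that group gave -2.63. Edn1 passed the filter only through libraries without TGFβ, so both lower calls were bound to appear and their adjusted p values are no support. Pam3 without TGFβ gave -0.39 (95% interval -1.48 to 0.69, adjusted p 0.708). In TGFβ cells, Pam3 gave 11 counts against 0. The bound against the same floor was 1.31-fold, but 1.96-fold without Pam3+TGFβ replicate 3, and without replicate 1 the mean lay below the floor, so no bound holds. The test called this difference (adjusted p 0.0119, or 0.0509 without Pam3+TGFβ replicate 1), although replicate 3 of Pam3+TGFβ also had 0 counts and the groups overlapped.

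**Figure D2:**
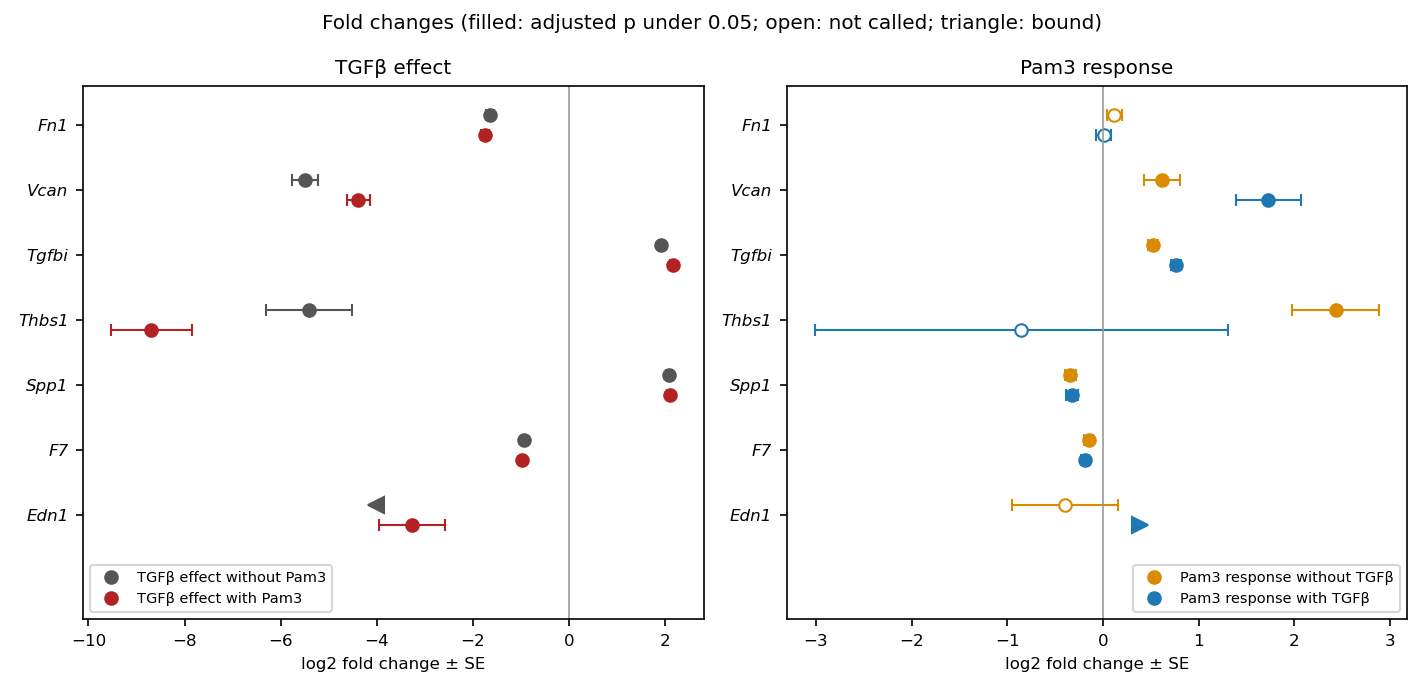
Log2 fold changes (x axis) of the 7 tested genes (y axis) for TGFβ in cells without and with Pam3 (left) and for Pam3 in cells without and with TGFβ (right). Points are fitted values with SE, filled where called, and triangles for Edn1 mark bounds against 3 counts per library (that on the right does not hold without Pam3+TGFβ replicate 1). TGFβ effects point the same way with and without Pam3 for each gene, and Pam3 responses of Fn1, Spp1 and F7 lie within 0.34 of 0.

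The response to Pam3 was then set against the background of all genes. In cells without TGFβ, Pam3 gave 3 calls upward and 2 downward among the 7 genes, where 9.62% of all tested genes were called upward and 8.66% downward. In cells with TGFβ the counts were again 3 and 2, against 20.4% and 18.1%. The genes differed in part, since Vcan and Tgfbi were called higher in both conditions, Thbs1 in cells without TGFβ and Edn1 in cells with it, while Spp1 and F7 were called lower in both. Called differences between the Pam3 responses numbered 2 higher and 0 lower among the 7 genes, against 10.3% and 5.67% of all tested genes. These were Tgfbi (0.24, SE 0.0731, adjusted p 0.0247) and Edn1 (adjusted p 0.0258). At an unadjusted p under 0.05 edgeR had 0 of the 7 lower, and DESeq2 also called 0 lower.

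The Tgfbi difference was not called with upper-quartile scaling (0.19, adjusted p 0.0781), nor without TGFβ replicate 1 (0.22), TGFβ replicate 3 (0.21), Pam3 replicate 2 (0.24), Pam3+TGFβ replicate 1 (0.21) or Pam3+TGFβ replicate 3 (0.21), with adjusted p values of 0.0518 to 0.0826. The Edn1 difference was fitted against a group at 0 counts. It was not called without any 1 of the 3 TGFβ libraries (fitted values 5.31 to 5.33) or without Pam3+TGFβ replicate 1 (4.72) or 2 (5.04), with adjusted p values of 0.056 to 0.0858, nor with limma-trend (2.13, adjusted p 0.144).

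Levels were next compared between genes, per length of exon sequence (CPM per kb of the union of exons in GENCODE M39). In untreated cells Spp1 stood at 586 ± 45.9, F7 at 363 ± 10.4, Fn1 at 239 ± 27.6 and Tgfbi at 179 ± 9.88 CPM per kb (SD, n = 3), and Vcan, Thbs1, Edn1 and Sparc stood at no more than 2.36. With TGFβ the order became Spp1 at 2488 ± 133, Tgfbi at 675 ± 10.4, F7 at 190 ± 3.88 and Fn1 at 76.8 ± 4.69 CPM per kb (SD, n = 3). Among 13510 tested genes with a length, Spp1 ranked 32nd in untreated cells and 8th with TGFβ, and Tgfbi ranked 139th and 21st. Fn1 moved from rank 104 to rank 333 and F7 from 59 to 111. Reads aligned without splitting over introns can undercount genes with many short exons, so levels between genes are less firm than differences between groups.

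Within a library, the ratio of Spp1 to Fn1 per kb separated the cells by TGFβ. It was 2.04, 2.96 and 2.46 in the untreated libraries and 1.81, 1.88 and 1.67 with Pam3, against 36.3, 32.0 and 29.3 with TGFβ and 26.2, 28.4 and 23.2 with both. The ratio of Tgfbi to Fn1 ran from 0.654 to 1.05 in the 6 libraries without TGFβ and from 8.33 to 16.3 in the 6 with it. These ratios do not depend on the scaling of the libraries. The 8 genes together took 0.637% to 0.717% of all counts in libraries without TGFβ and 1.13% to 1.28% in those with it.

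**Figure D3:**
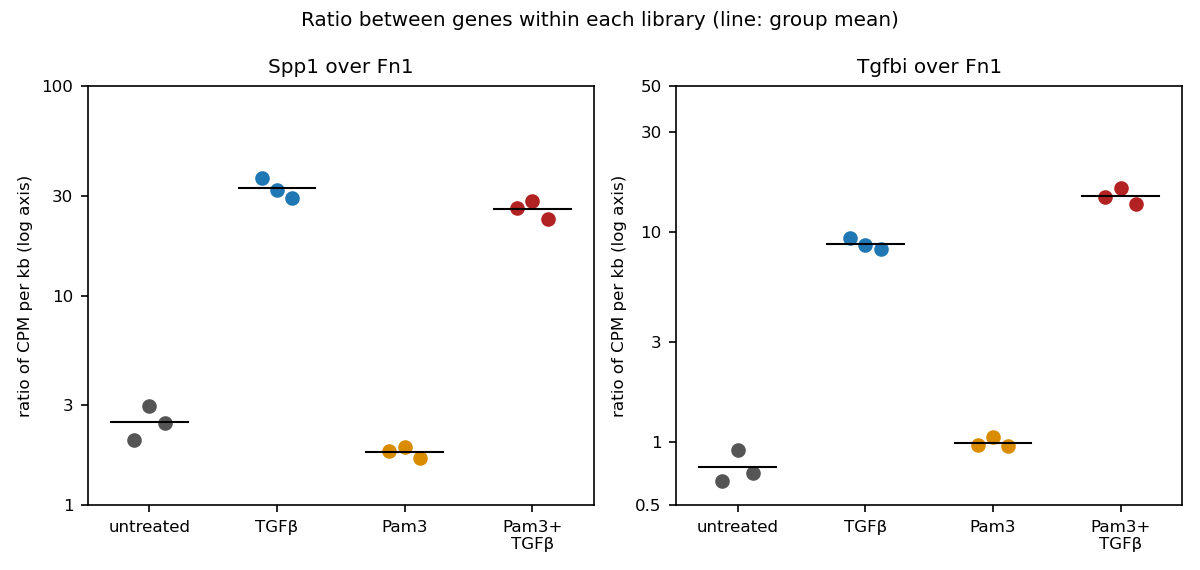
Ratio of Spp1 to Fn1 (left) and of Tgfbi to Fn1 (right), both in CPM per kb within a library (y axis, log scale), in the 4 groups (x axis). Points are libraries and lines are group means. Libraries with TGFβ lie at 23.2 to 36.3 on the left and 8.33 to 16.3 on the right, above all libraries without it.

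Receptors for these products did not move as a block with TGFβ. Of 18 listed receptor genes 13 were tested. With TGFβ alone 6 were called higher and 6 lower, beside 22.9% and 28.1% of all tested genes. With Pam3 present 7 were higher and 4 lower, beside 21.5% and 23.8%. In both comparisons 1 of the lower calls, Itgb3, came from a gene that passed the filter only through libraries without TGFβ, and so was bound to be lower. Their median log2 fold change with TGFβ alone was -0.03, beside -0.01 over all tested genes. With Pam3 present it was 0.385, beside -0.00171. Itgb5, an integrin subunit that pairs with the alpha-v chain, rose from 56.3 ± 2.35 to 322 ± 2.69 CPM (SD, n = 3), a change of 2.51 on the log2 scale (adjusted p 3.97e-23). Cd36, a scavenger receptor that binds thrombospondin-1, fell from 456 ± 13.9 to 51.2 ± 4.05 CPM (SD, n = 3), a change of -3.15 (adjusted p 9.56e-20). Sdc1, a syndecan that binds matrix through heparan sulfate, fell from 13.8 ± 2.07 to 0.961 ± 0.198 CPM (SD, n = 3), a change of -3.83 (adjusted p 3.25e-12).

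Other matricellular genes were set beside Thbs1. Of 20 listed, 8 were tested, and TGFβ alone gave 2 called higher and 5 lower, beside 22.9% and 28.1% of all tested genes. With Pam3 present 1 was called higher and 5 lower, beside 21.5% and 23.8%. Ccn3, a growth-regulating member of the CCN family, fell from 642 ± 26.4 to 21.2 ± 3.10 CPM (SD, n = 3, log2 fold change -4.92, adjusted p 2.10e-16). Tnc, the gene of tenascin-C, stood at 46 to 64 counts per library in untreated cells and 0 to 3 with TGFβ, and Comp, a thrombospondin family member, at 14 to 22 and 1 to 4 counts. Both passed the filter only through libraries without TGFβ, so they were bound to be lower with it, and 2 of the 5 lower calls in each comparison are theirs. Likewise Thbs4, which passed only through libraries with TGFβ, is 1 of the 2 higher calls with TGFβ alone and the 1 higher call with Pam3 present. These calls support nothing about the list.

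Many structural matrix genes stayed below the filter on low counts, as did many rows of the whole count table. Of 52 listed core matrix genes, 19 passed it, beside 14749 of all 40847 rows. TGFβ alone gave 3 called higher and 8 lower (median -0.13 beside -0.01 over all tested genes), while with Pam3 present 7 were higher and 6 lower. The shares over all tested genes were 22.9% and 28.1%, and 21.5% and 23.8% with Pam3. Ecm1 fell from 49.5 ± 0.476 to 6.25 ± 1.71 CPM (SD, n = 3, log2 fold change -2.99, adjusted p 1.23e-12). Fbln5, an elastic fibre protein, had 71 to 93 counts per untreated library and 0 to 4 with TGFβ, and it passed the filter only through libraries without TGFβ. Col4a1, a chain of basement membrane collagen, had 1 to 2 counts per untreated library and 10 to 19 with TGFβ, and it passed only through libraries with TGFβ. For such genes a difference was bound to appear. They make up 2 of the 3 higher and 1 of the 8 lower calls with TGFβ alone, and 2 of the 7 and 1 of the 6 with Pam3 present. Col1a2, a fibrillar collagen gene, had no count in any library.

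Enzymes that assemble, crosslink or trim the matrix came next. Of 29 listed, 18 were tested, with 5 called higher and 6 lower with TGFβ alone (median -0.08 beside -0.01 over all tested genes) and 6 higher and 7 lower with Pam3 present. These counts lie near the shares over all tested genes for TGFβ alone, 22.9% and 28.1%. With Pam3 present those shares were 21.5% and 23.8%. Lox, which crosslinks collagen and elastin, fell from 3.41 ± 0.579 to 0.412 ± 0.0799 CPM (SD, n = 3, log2 fold change -3.05, adjusted p 1.19e-08). Plod2, a collagen lysyl hydroxylase, changed by -2.45 (adjusted p 1.14e-05). Adamts4, a protease that cleaves versican, had 3 to 7 counts per untreated library and 31 to 34 with TGFβ, and it passed the filter only through libraries with TGFβ. Genes that passed only through libraries with TGFβ, or only through those without it, gave 1 of the 5 higher calls with TGFβ alone. With Pam3 present they gave 1 of the 6 higher and 1 of the 7 lower calls.

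Clotting genes that act around factor VII were examined in the same way. Of 23 listed, 17 were tested, and TGFβ alone gave 1 called higher and 8 lower, beside 22.9% and 28.1% of all tested genes, with a median of -0.57 beside -0.01. With Pam3 present 3 were higher and 8 lower, beside 21.5% and 23.8%. F3, tissue factor and the cofactor of factor VII, fell from 10.2 ± 1.48 to 0.884 ± 0.440 CPM (SD, n = 3), with -3.51 on the log2 scale (adjusted p 2.45e-12). F5, the cofactor of the prothrombin-cleaving complex, had 192 to 243 counts per untreated library and 0 to 4 with TGFβ, and passed the filter only through libraries without TGFβ, so 1 of the 8 lower calls in each comparison was bound to appear. Likewise 1 of the 3 higher calls with Pam3 present came from a gene that passed only through libraries with TGFβ, and was bound to appear. F2rl2, a protease-activated receptor, fell from 23.2 ± 1.44 to 1.36 ± 0.327 CPM (SD, n = 3, -4.08, adjusted p 2.10e-18).

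Of 8 listed genes of the endothelin system, 3 were tested, and each was called with TGFβ alone (2 higher, 1 lower, beside 22.9% and 28.1% of all tested genes) and with Pam3 present (2 higher, 1 lower, beside 21.5% and 23.8%). Ednrb, the type B receptor, had 53 counts over the untreated libraries and 0 over the TGFβ libraries, at least 5.92-fold lower, and 57 counts with Pam3 against 0 with both, at least 6.63-fold lower. It passed the filter only through libraries without TGFβ, so it was bound to differ. Ednra, the type A receptor, rose from 0.207 ± 0.118 to 3.12 ± 0.593 CPM (SD, n = 3, log2 fold change 3.88, adjusted p 4.80e-09). Ece1, the enzyme that releases active endothelin from its precursor, rose from 121 ± 1.96 to 207 ± 7.37 CPM (SD, n = 3, 0.77, adjusted p 4.67e-13).

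**Figure D4:**
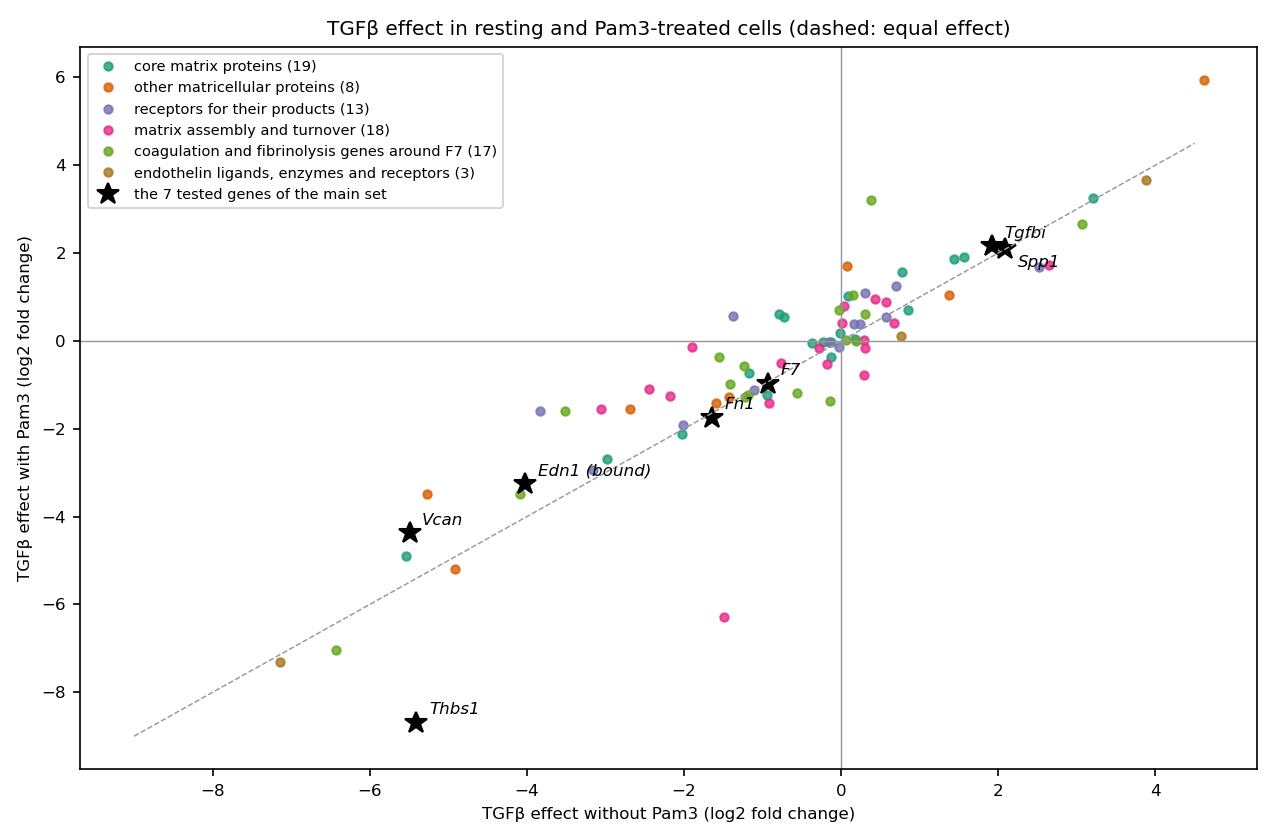
TGFβ effect without Pam3 (x axis) and with Pam3 (y axis), as log2 fold changes, of the 7 tested genes (stars) and of the tested genes of 6 related lists (dots, numbers in the legend). Dots are fitted values, which have no upper limit where a group had no count, and Edn1 is drawn at its bound on the x axis. Tgfbi and Spp1 lie in the upper right and Fn1, Vcan, Thbs1, F7 and Edn1 in the lower left.

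By the smallest root mean square difference of centred log2 CPM over the 12 libraries, each gene was set beside 11888 others with a mean of at least 1 CPM. Sestd1 (0.144) and Sgms1 (0.159) were nearest to Fn1, Il7r (0.464) and Wfdc17 (0.482) to Vcan, and AW112010 (0.177) and Ifitm10 (0.183) to Tgfbi. Fabp7 (0.127) and Osm (0.138) were nearest to Spp1, and Ctsa (0.0543) and Tecpr1 (0.0619) to F7. Erc2 (0.520) and Ptchd1 (0.562) were nearest to Edn1. Serpinb2 (1.07) and Serpinb10 (1.12) were nearest to Thbs1, where the difference was larger than for the other genes. Serpinb2 stood at 6.12 CPM untreated, 0.0184 with TGFβ, 53.9 with Pam3 and 0.274 with both (group means). The libraries share their depth and groups, so these values describe likeness and carry no p.

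Markers of other cell types that could make these products were summed. The 8 fibroblast markers summed to 2.89 to 4.48 CPM in untreated libraries, 2.12 to 2.46 with TGFβ, 4.06 to 4.94 with Pam3 and 2.64 to 2.91 with both, and Col1a2 and Lum were at 0 in every library. Acta2 stood at 2.70 CPM untreated and 0.931 CPM with TGFβ, and Pdgfra at 0.594 and 1.02 CPM. The 6 endothelial markers summed to 286 to 302 CPM untreated, 178 to 194 with TGFβ, 217 to 221 with Pam3 and 119 to 135 with both. Nearly all of this was Vwf, with a mean of 292 CPM untreated, while Cdh5 stood at 0.888 CPM untreated and 0.0514 CPM with TGFβ, and Emcn was at 0. The 7 hepatocyte markers summed to 868 to 959 CPM untreated, 1904 to 2035 with TGFβ, 871 to 907 with Pam3 and 1757 to 1848 with both, of which Trf made up nearly all. Ttr, Fga and Fgb were at 0, and Alb stood at no more than 0.0437 CPM in any group. The 6 platelet markers summed to 8.31 to 10.2 CPM untreated, 3.14 to 4.79 with TGFβ, 14.5 to 15.3 with Pam3 and 2.60 to 3.11 with both. Ppbp fell from 6.03 to 0.0494 CPM and Pf4 from 1.52 to 0.247 CPM with TGFβ, while Gp1ba rose from 1.73 to 3.52 CPM (adjusted p 0.00136). The 6 neutrophil markers summed to 13.5 to 15.7 CPM untreated, 3.62 to 5.31 with TGFβ, 16.2 to 16.5 with Pam3 and 4.92 to 6.40 with both. Nearly all of the untreated sum was S100a8, which fell from 13.8 to 3.07 CPM with TGFβ, while S100a9 rose from 0.253 to 0.993 CPM (adjusted p 0.00498) and Mpo was at 0. The 5 mast cell and basophil markers summed to 0.263 to 1.20 CPM untreated, 0 to 0.0741 with TGFβ, 0.265 to 0.731 with Pam3 and 0 to 0.136 with both, with Tpsb2 and Fcer1a at 0. The 5 erythroid markers summed to 1.77 to 2.69 CPM untreated, 3.48 to 4.03 with TGFβ, 0.731 to 2.10 with Pam3 and 0.949 to 1.82 with both, nearly all of it Epor. Fibroblast, endothelial, platelet, neutrophil and mast cell sums were thus lower with TGFβ, as were Thbs1 and Edn1. The hepatocyte sum was higher with TGFβ, while F7 was lower, and the erythroid sum was higher with TGFβ alone. What part such cells had in these results was not tested.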

How the data were processed

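The authors deposited whole-number read counts per gene symbol for 12 libraries, and the same counts divided by 1 constant per library as a normalized signal. The submitters' processing notes name the build GRCm39 and the tools Bowtie2 2.4.1 (an aligner that does not split reads over introns), featureCounts with Subread 2.0.0 (read counting) and DESeq2 1.36.0. The annotation and strand setting of counting are not given in the sources used here, so antisense overlaps cannot be told apart.

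From the deposited counts, genes were filtered with filterByExpr (minimum count 10), which left 14749, scaled with TMM and fitted in R 4.3.3 with edgeR 4.0.16 (glmQLFit with its robust option, 4 group means, 12 libraries). Each adjusted p comes from this test over all tested genes unless another is named. SE is the size of the log2 fold change divided by the root of F. Alternatives were other scalings, filters, DESeq2 1.42.0, limma-trend (limma 3.58.1) on log2 of the deposited normalized signal plus 1, a replicate block, fits of the groups compared and leaving out each library. The 8 genes, the lists and the tests were chosen with earlier results of these data known. From each list, up to 3 genes are named for TGFβ without Pam3 and up to 2 for the interaction, those with the largest called change, at least 10 counts in each library of the higher group and, for TGFβ, no overlap. For likeness the nearest 2 genes are named. Gene positions come from GENCODE M39, matched by symbol for 32245 rows. Counting floors and intervals cover counting error only. Values of 2 list genes are not reported here.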

Additional observations from a re-analysis of the deposited data

Results flagged for a closer look

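Each value here subtracts the response to Pam3 in cells without TGFβ from that in cells with TGFβ, on the log2 scale, and is listed because the edgeR quasi-likelihood test of that difference was called. Among the 8 genes, Tgfbi had 0.24 (adjusted p 0.0247) and Edn1 had 5.33 (adjusted p 0.0258), the latter fitted against a TGFβ group with no count and so no measure of size.

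Among receptors, the values were 2.23 for Sdc1 (adjusted p 2.32e-06) and 1.95 for Stab1 (adjusted p 2.29e-07), a scavenger receptor for Sparc. Sdc1 stood at 30.5 ± 1.37 CPM with Pam3 and 10.1 ± 2.66 CPM with both, and Stab1 at 19.3 ± 1.89 and 28.8 ± 3.28 CPM (SD, n = 3). Basement membrane and fibrillar collagen genes had 1.28 for Col4a2 (adjusted p 0.000165) and 1.39 for Col5a1 (adjusted p 0.00124). Lox had 1.51 (adjusted p 0.00253), and Chst11, which sulfates the chondroitin chains that versican carries, had 1.76 (adjusted p 6.34e-11). Chst11 stood at 34.9 ± 2.13 CPM with Pam3 and 31.7 ± 3.44 CPM with both, after 33.2 ± 0.758 CPM untreated and 8.88 ± 0.781 CPM with TGFβ (SD, n = 3).

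In the clotting list, F3 had 1.92 (adjusted p 2.90e-05) and Plaur, the urokinase receptor, 1.19 (adjusted p 1.44e-11). F3 stood at 11.02 ± 1.65 CPM with Pam3 and 3.67 ± 0.190 CPM with both, and Plaur at 587 ± 32.6 and 456 ± 26.0 CPM (SD, n = 3), so both were lower with TGFβ after Pam3 despite the larger response. Lower values were called for Ece1, with -0.644 (adjusted p 6.21e-08), and, outside the naming rule and picked after their values were seen, for Itgb5, with -0.833 (adjusted p 7.78e-10), and Chsy1, with -0.259 (adjusted p 0.0152). By list, calls in edgeR numbered 6 higher of 19 core matrix genes (3 called without Pam3+TGFβ replicate 3) and 0 of 8 other matricellular genes. There were 4 higher and 1 lower of 13 receptors, and 6 higher and 1 lower of 18 assembly and turnover genes. The clotting list had 6 higher of 17 genes and the endothelin list 1 lower of 3. Of all tested genes, 10.3% were called higher and 5.67% lower.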

How the results depend on the processing

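For TGFβ with and without Pam3, all 7 tested genes kept their direction and call in each alternative that could test them. For Thbs1 and Edn1, which passed the filter only through libraries without TGFβ, these calls were bound to appear. With at least 10 counts in every library, Vcan, Thbs1 and Edn1 drop out, so 4 genes were called for TGFβ with or without Pam3, for Pam3+TGFβ against untreated and for Pam3 against TGFβ, 3 for each Pam3 response and 1 for the interaction. The Pam3 response without TGFβ had 5 called genes, 3 with limma-trend and 3 in the fit of the groups compared, and 3 to 5 on leaving out 1 library. With TGFβ, leaving out 1 library gave 4 (without Pam3+TGFβ replicate 1) to 5. The interaction had 2, with 1 under upper-quartile scaling and 1 under limma-trend, and 0 (without TGFβ replicate 1 or Pam3+TGFβ replicate 1) to 2 over left-out libraries. Shares of all tested genes called under each alternative are not given in this section. Its counts, also those of the lists below, therefore describe only how calls moved.

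Signs turned where no call was made. The Fn1 response to Pam3 with TGFβ was -0.055 with upper-quartile scaling and -0.076 to 0.062 over left-out libraries (below 0 without untreated replicate 1, TGFβ replicate 1, Pam3+TGFβ replicate 1 and Pam3+TGFβ replicate 3). The Spp1 interaction was -0.028 with upper-quartile scaling and -0.048 to 0.059 over left-out libraries (below 0 without untreated replicates 2 and 3, TGFβ replicate 3 and Pam3+TGFβ replicate 1). The Thbs1 response with TGFβ was 0.92 without TGFβ replicate 1 and otherwise as low as -1.48. The cause was not tested.

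In the lists, examined under the same alternatives after the data were seen, called genes for the interaction in the core matrix list fell from 6 to 3 without Pam3+TGFβ replicate 3, the lowest over left-out libraries, whose highest was 7. Other matricellular genes had 0 called for the interaction and 1 without a filter, 1 with limma-trend and 0 to 1 over left-out libraries. With at least 10 counts in every library, fewer genes were tested, and 3 other matricellular genes and 1 endothelin gene were called for TGFβ with or without Pam3.

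Replicate numbers recur in each group, but nothing in the labels says that they pair samples. Over 18 pairs of same-numbered libraries, deviations from group means correlated at -0.174 to 0.300 (median 0.0614), and 7 pairs exceeded 0.1. Over the 36 other pairs of libraries from different groups they correlated at -0.397 to 0.323 (median -0.0578). The highest value was between TGFβ replicate 2 and Pam3 replicate 1. Deviations shared between libraries of different numbers are not modelled by a block on the number. With the replicate block the genes called were 7 and 7 for TGFβ, 4 and 5 for Pam3 and 2 for the interaction, and the call that the block removed was that of Vcan for Pam3 without TGFβ (adjusted p 0.0726). Depth limits Thbs1 and Edn1 with TGFβ and Sparc throughout.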

Other observations

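Lox and Col4a2 rose with Pam3 in both conditions, and were picked for description here after their values were seen. Lox went from 3.41 ± 0.579 to 36.4 ± 6.54 CPM without TGFβ and from 0.412 ± 0.0799 to 12.6 ± 2.50 CPM with it, and Col4a2 from 2.37 ± 0.552 to 10.8 ± 1.13 CPM and from 1.43 ± 0.189 to 15.9 ± 1.76 CPM (SD, n = 3). The log2 fold changes in edgeR were 3.41 and 4.93 for Lox (adjusted p 1.35e-11 and 1.34e-12) and 2.19 and 3.47 for Col4a2 (adjusted p 7.01e-11 and 2.65e-15).

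Thbs4, a relative of Thbs1, had 0 counts in each untreated library, 1 to 6 with TGFβ, 0 to 2 with Pam3 and 56 to 82 with both, so it was high in the group where Thbs1 had 3, 0 and 3 counts. It was chosen after its values were seen.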
